A study of Mus musculus with 62 samples.

Results

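The genes described here are 10 genes of the choroid plexus epithelium, followed through all 5 brain regions of an ethanol study, namely Ttr, Kl, Kcne2, Tmem72, F5, Folr1, Clic6, Otx2, Aqp1 and Slc4a5. All 10 were found by their symbols among the 56415 genes of the count table. They were chosen with earlier results of these libraries in view, because they stood out together in the ventral hippocampus after chronic ethanol and varied widely between libraries. Their levels, their joint variation and the vHPC values after chronic ethanol are therefore given below as a description. Where counts of called genes are printed for that comparison and its interaction, nothing is read from them. The study asked how a single or repeated dose of ethanol changes gene expression in brain regions linked to alcohol use.

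RNA-seq was performed on polyadenylated RNA from 62 tissue cores. They came from 16 C57BL/6J mice, all male and 8 to 10 weeks old. Each mouse received saline or ethanol by i.p. injection, with ethanol dosed at 2 g/kg from a 20% solution, given once in the acute paradigm or daily for 10 days in the chronic paradigm, and was killed 4 h after the last dose. Tissue was cored from coronal slices of frozen brain in the cortex, the dorsal and ventral hippocampus (dHPC and vHPC) and the dorsal and ventral striatum (DS and VS), which gave 20 groups of 3 or 4 mice. Replicate numbers name mice within a group, so replicate 2 of the saline group and replicate 2 of the ethanol group are different animals.

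The choroid plexus is a fold of vascularized tissue inside the brain ventricles, covered by an epithelium that secretes the cerebrospinal fluid. Its epithelial cells move ions and water from blood to ventricle, carry folate and hormones across the same barrier, and release transthyretin in large amounts. It lies next to the hippocampus and the striatum in the lateral ventricle and is no part of the neural tissue of any of the 5 regions. In bulk tissue, fewer cells of a type and less RNA per cell cannot be told apart.

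The genes fall into a few roles, and they lie on 7 chromosomes (build GRCm39, coordinates of the count table). Ttr encodes transthyretin, which carries thyroid hormone and retinol-binding protein, and spans 20798337 to 20807378 of chromosome 18.

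Folr1, the folate receptor that brings folate into the cerebrospinal fluid, spans 101507538 to 101519890 of chromosome 7. Aqp1, a water channel of the ventricular membrane, spans 55313417 to 55325540 of chromosome 6. Slc4a5 is a sodium bicarbonate cotransporter of that membrane, at 83196810 to 83280458 of chromosome 6. Kcne2, a subunit that modifies potassium channels, spans 92089277 to 92095017 of chromosome 16, and Clic6, of the chloride intracellular channel family, spans 92282624 to 92338131 of the same chromosome. The gap between Kcne2 and Clic6 measures 187606 bases and holds other genes. Otx2 encodes a homeodomain transcription factor needed to form the plexus, at 48895134 to 48911276 of chromosome 14. Kl encodes klotho, a coreceptor for a fibroblast growth factor hormone, at 150876072 to 150917282 of chromosome 5. F5 encodes coagulation factor V, at 163979407 to 164047846 of chromosome 1, and Tmem72 encodes a transmembrane protein, at 116656024 to 116693874 of chromosome 6.

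RefSeq promoter sequences (build GRCm38.p6, 300 bases from 250 before to 50 after a start site) were used for 7 of the 10 genes, with 11 start sites in all. A few of them are shown. An Otx2 promoter is the only 1 of these 11 that holds the letters TAATCC on either strand, the core motif of OTX-type homeodomains. Tmem72 and F5 are the pair with the highest joint variation among these 7 genes. Capitals mark the motif, read here on the other strand, and the sequences run 5′ to 3′ along the gene's own strand.
Otx2, minus strand, chr14:48665060-48665359: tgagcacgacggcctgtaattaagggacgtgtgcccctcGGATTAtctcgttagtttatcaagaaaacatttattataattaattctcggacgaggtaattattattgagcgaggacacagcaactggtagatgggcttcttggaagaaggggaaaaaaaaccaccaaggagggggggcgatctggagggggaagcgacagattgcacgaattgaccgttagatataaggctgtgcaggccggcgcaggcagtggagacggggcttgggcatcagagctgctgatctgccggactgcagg
Tmem72, minus strand, chr6:116716709-116717008: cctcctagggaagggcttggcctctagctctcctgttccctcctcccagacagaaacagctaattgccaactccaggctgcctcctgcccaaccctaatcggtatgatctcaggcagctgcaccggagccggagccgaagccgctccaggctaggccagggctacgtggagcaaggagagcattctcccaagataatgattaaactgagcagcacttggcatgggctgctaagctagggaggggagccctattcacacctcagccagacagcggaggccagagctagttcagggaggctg
F5, plus strand, chr1:164151585-164151884: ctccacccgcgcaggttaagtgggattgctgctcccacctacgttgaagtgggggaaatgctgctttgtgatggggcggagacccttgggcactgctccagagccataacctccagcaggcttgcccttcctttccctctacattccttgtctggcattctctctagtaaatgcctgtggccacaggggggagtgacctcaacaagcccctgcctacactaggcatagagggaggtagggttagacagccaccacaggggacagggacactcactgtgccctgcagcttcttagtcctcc
TAATCC was present in 1 of the 11 member promoters used and in 7.06% of all 32851 promoters of the same length. The printed windows have 51.0% (Otx2), 59.0% (Tmem72) and 57.7% (F5) G or C, against a median of 52.7% over all promoters.

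Total gene counts ran from 8149628 to 71164766 per library. The cortex and dHPC libraries (43173748 to 71164766) were made with a non-directional kit and read on another platform than the vHPC, DS and VS libraries (8149628 to 46564992), so levels of the former cannot be told apart from batch when set beside the latter. Levels are given as CPM, counts scaled to library size with the trimmed mean of M values (TMM) over all libraries. Region markers went with the labels: a list of 10 striatal projection neuron genes summed to 4712 to 9525 CPM in the DS and to 279 to 394 CPM in the cortex. A few libraries departed from their region, and the same list reached 2827 CPM in chronic saline replicate 5 of the dHPC and 1532 CPM in chronic ethanol replicate 5 of the vHPC. Chronic saline replicate 2 of the DS lacked every count of chromosomes MT, X, Y, 7, 8 and 9, and on chromosome 6 its last counted gene started at 22875501. Folr1, Aqp1, Slc4a5 and Tmem72 lie in those stretches, and this library was left out of the DS fits and of the statistics below.

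Ttr had the highest level of the 10 genes in most libraries and spanned the widest range. Its median level was 11.1 CPM in the cortex (2.04 to 117, n = 12), 2031 CPM in the dHPC (10.6 to 3706, n = 13), 436 CPM in the vHPC (3.39 to 2880, n = 12), 310 CPM in the DS (0.699 to 6510, n = 12) and 5.10 CPM in the VS (0.281 to 2614, n = 12). The order of the medians was dHPC, vHPC, DS, cortex, VS, and the ranges of all 5 regions overlapped. The same library of the DS, chronic saline replicate 6, held the highest level of each of the 10 genes.

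Summed over the 10 genes, the level ranged from 5.69 to 133 CPM in the cortex, from 35.3 to 4153 CPM in the dHPC, from 26.9 to 3299 CPM in the vHPC, from 23.8 to 7438 CPM in the DS and from 25.0 to 2967 CPM in the VS. Mice of the same group thus differed widely. In 9 of the 20 groups the highest library exceeded the lowest by more than 10 times, and the ratio reached 135 in the DS chronic ethanol group and 119 in the VS chronic saline group. The steadiest groups were VS chronic ethanol (35.8, 40.4 and 41.8 CPM), cortex chronic saline (13.97, 14.7 and 17.0 CPM) and dHPC acute saline (2082, 2305 and 3433 CPM).

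**Figure D1:**
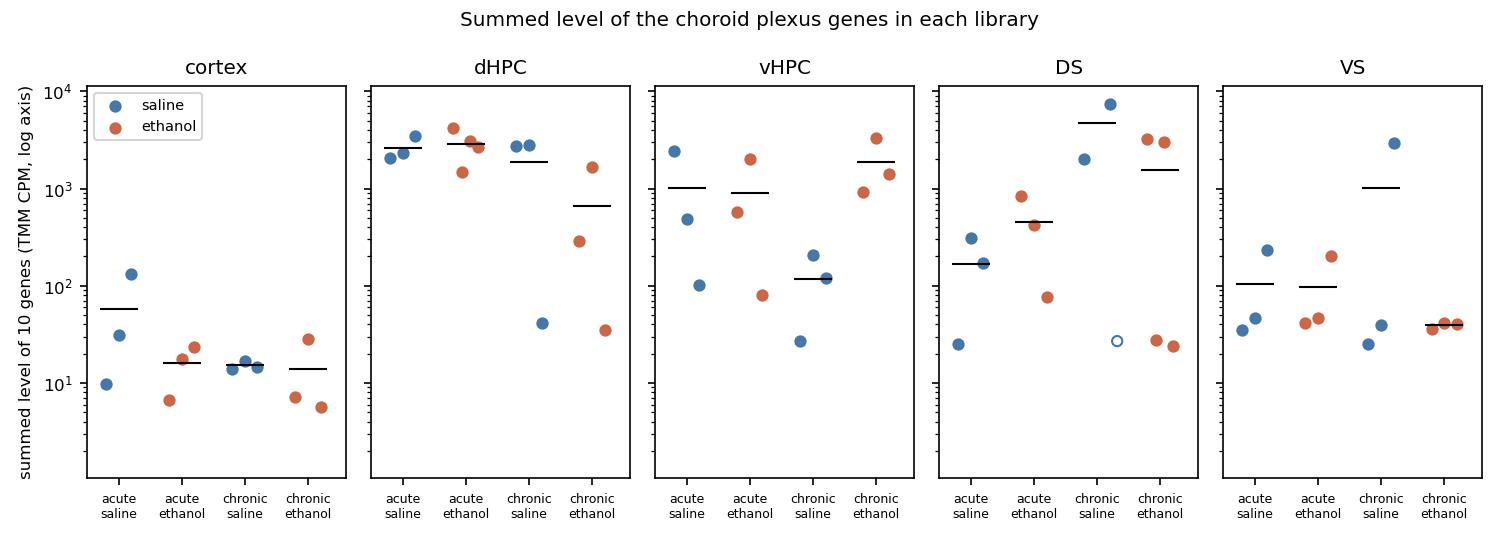
Summed level of the 10 genes (TMM CPM, log axis) in each library, by region and by paradigm and treatment; points are mice, black lines are group means, and the open circle is the incomplete DS library. Libraries of the dHPC run from 35.3 to 4153 CPM with a median of 2305. Those of the cortex do not pass 133, and those of the DS run from 23.8 to 7438.

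The level did not follow the mouse from region to region. Mouse 6 of the chronic saline group had 7438 CPM in the DS and 2967 CPM in the VS, the highest values of those regions, with 41.5 CPM in the dHPC, 119 CPM in the vHPC and 14.7 CPM in the cortex. Mouse 6 of the chronic ethanol group had 1405 CPM in the vHPC, with 35.3 CPM in the dHPC and 23.8 CPM in the DS, the lowest values of both regions. Mouse 2 of the acute saline group combined 2440 CPM in the vHPC and 2082 CPM in the dHPC with 25.1 CPM in the DS. Each of these mice thus held high and low tissue cores.

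The other genes were less abundant than Ttr. Per kilobase of exon, the median levels in the dHPC were 1712 CPM for Ttr, 13.0 for Clic6, 9.78 for Kl, 8.86 for Folr1, 6.40 for Aqp1, 6.03 for Kcne2, 4.02 for F5, 3.22 for Slc4a5, 2.40 for Otx2 and 1.47 for Tmem72. In that order neighbors other than Ttr and Clic6 lay close together, and the range of each gene over the 13 dHPC libraries overlapped that of its neighbors. Ttr made up 30.1% to 89.2% of the summed CPM in the dHPC and 0.786% to 88.1% in the VS, so the sum is mainly Ttr where it is high.

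Kcne2 and Slc4a5 stayed in a narrow ratio to Ttr in the dHPC, and less so elsewhere. The dHPC counts of Kcne2 were 0.409% to 0.822% of the Ttr counts of the same library and those of Slc4a5 0.548% to 1.43%, while Ttr itself spanned a ratio of 349 between libraries. In the vHPC Slc4a5 ran from 0.698% to 5.26% of Ttr, and the upper end came from chronic saline replicate 2, where Ttr was at its lowest vHPC level (3.39 CPM) and Slc4a5 at 0.178 CPM. Kcne2 had 0 counts in 9 of the 12 VS libraries, among them all 3 of the chronic ethanol group.

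Kl and Clic6 showed a base level where Ttr was low, and the regions differed in which gene kept it. Kl did not fall below 19.4 CPM in the vHPC or 19.6 CPM in the dHPC, whereas it went down to 2.80 CPM in the DS and 3.78 CPM in the VS and to 1.00 CPM in the cortex. Clic6 showed the reverse: its lowest library had 13.4 CPM in the DS and 13.4 CPM in the VS, against 0.356 CPM in the vHPC and 0.851 CPM in the dHPC. In VS chronic ethanol replicate 1, for example, Clic6 had 23.8 CPM beside 0.281 CPM of Ttr. Since the vHPC, DS and VS libraries share kit and platform, this contrast between Kl and Clic6 stands within 1 batch.

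**Figure D2:**
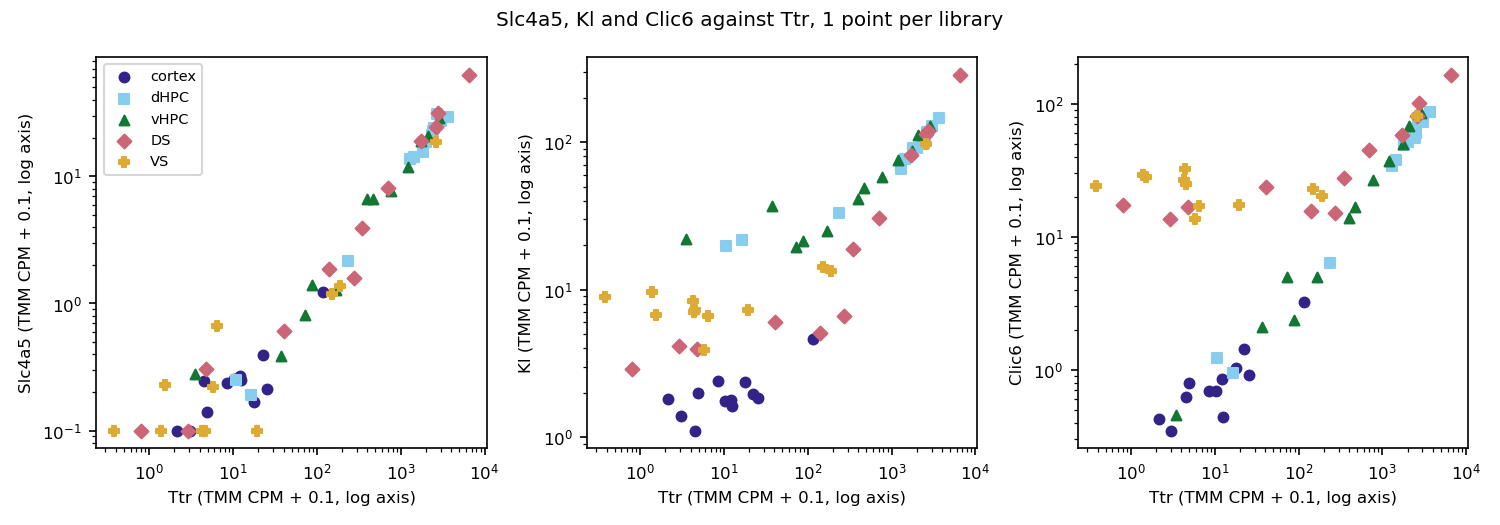
Level of Slc4a5, Kl and Clic6 against that of Ttr (TMM CPM + 0.1, log axes), with 1 point per library (n = 61) and a color and shape for each region. Slc4a5 falls with Ttr in every region, Kl levels off near 19.4 CPM in the vHPC and 2.80 CPM in the DS, and Clic6 levels off at 13.4 CPM in the DS and VS but goes on falling in the vHPC and dHPC.

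Otx2 and F5 held a smaller base level in the striatum. Otx2 stayed between 0.366 and 4.58 CPM in 11 of the 12 VS libraries and reached 11.3 CPM in chronic saline replicate 6. F5 stayed between 0.689 and 2.45 CPM in the same 11 libraries and reached 48.9 CPM in that one. In the cortex Otx2 and Slc4a5 were at 0 counts in 2 libraries each.

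Tmem72, Folr1 and Aqp1 spanned wide ranges outside the cortex, as Ttr did. Their Pearson correlation with Ttr within groups (log2 CPM) was 0.90, 0.87 and 0.94, against 0.91 for F5 and 0.88 for Kl. The level of Tmem72 ran from 0.781 to 43.5 CPM in the dHPC, from 0.283 to 41.1 CPM in the vHPC and from 0.0985 to 35.3 CPM in the VS. Folr1 ran from 0.314 to 29.4 CPM in the dHPC and from 0.294 to 53.3 CPM in the DS. Aqp1 ran from 0.224 to 29.0 CPM in the dHPC and from 0 to 52.9 CPM in the DS. In the cortex the highest of the 12 libraries was acute saline replicate 6 for Tmem72 (2.38 CPM), Folr1 (1.23 CPM) and Aqp1 (0.744 CPM).

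**Figure D3:**
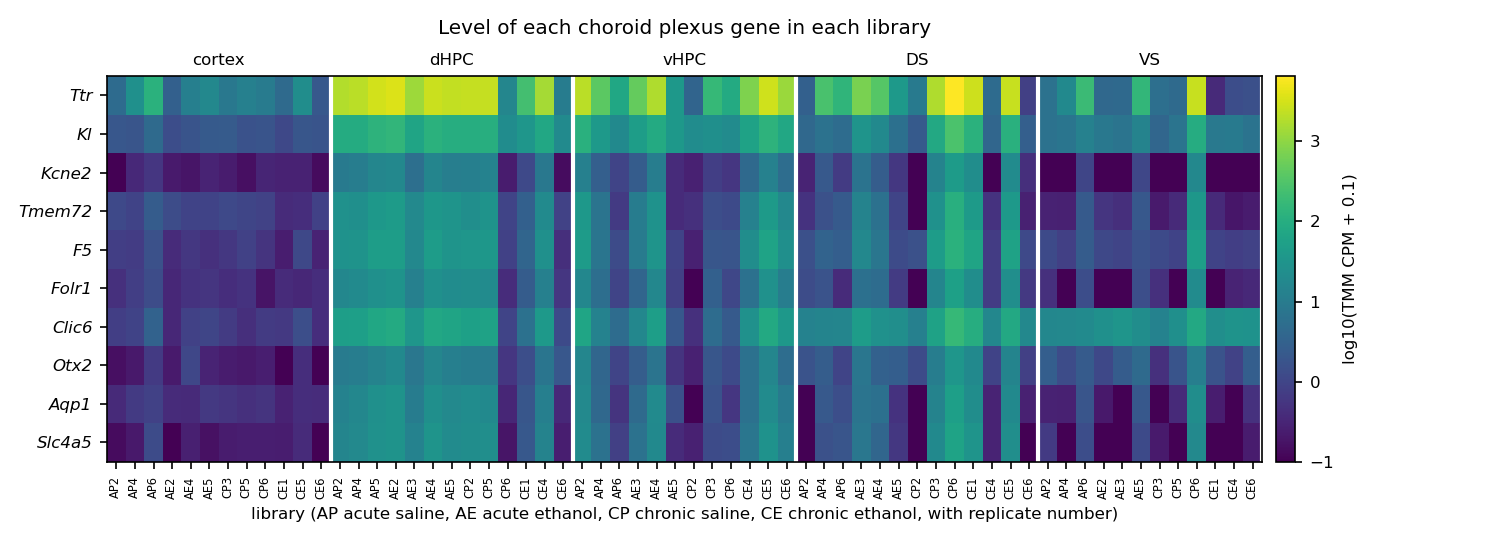
Level of each of the 10 genes (rows) in each of the 62 libraries (columns, grouped by region), as log10(TMM CPM + 0.1). Columns brighten or darken together over most rows, while Clic6 stays at 13.4 CPM or more in the DS and VS columns, except for 12.5 CPM in the incomplete library CP2 of the DS, and Kl at 19.4 CPM or more in the hippocampal columns.

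Isoform counts, in which 1 read can count for several isoforms, were compared for Kl and Clic6. The retained-intron isoform of Kl had a median of 27.9% of the counts of its protein-coding isoform in the cortex, 27.3% in the dHPC, 27.9% in the vHPC, 26.3% in the DS and 26.0% in the VS. Its range over the 13 dHPC libraries was 25.4% to 33.1%, over which Ttr spanned a ratio of 349. The second isoform of Clic6 had a median of 13.9% of the counts of the first in the vHPC and 16.5% in the VS, and Ttr has 1 annotated isoform.

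Within groups the 10 genes varied together. After group means were removed, the median Pearson correlation of log2 CPM over the 45 pairs was 0.88 (0.69 to 0.95) over 61 libraries. The pair with the highest value was Ttr with Slc4a5 (0.95), followed by Tmem72 with F5 (0.94), and the lowest was Kl with Clic6 (0.69). The libraries share depth and mice, and these values are a description of the spread between tissue cores. Within regions the median was 0.99 in the dHPC, 0.96 in the vHPC, 0.93 in the DS, 0.88 in the VS and 0.59 in the cortex, where counts were low.

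The spread was large beside that of other genes. The within-group SD of log2 CPM was 2.99 for Ttr, 2.44 for Slc4a5, 2.22 for Kcne2 and 1.18 for Kl, against a median of 0.20 over 18018 genes with a mean of at least 1 CPM. The lowest of the 10, Kl, was at percentile 99.5 of those genes in this measure, and Ttr was at percentile 99.9944. The slope of a gene's deviation on that of Ttr was 0.78 for Slc4a5, 0.69 for Aqp1 and 0.60 for Folr1. For the genes with a base level it was 0.35 (Kl), 0.37 (Clic6), 0.41 (Otx2) and 0.58 (F5).

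By the same measure, the 10 genes outside the list that were most alike to its mean were Kcnj13 (r = 0.97), Cldn2 (0.96), Enpp2 (0.95), Prr32 (0.94), 2900040C04Rik (0.93), Ecrg4 (0.93), Trpv4 (0.93), Krt18 (0.92), Krt8 (0.91) and Steap1 (0.91), each over 61 libraries. Kcnj13 is a potassium channel of the plexus epithelium, Cldn2 a tight junction protein, Enpp2 the enzyme autotaxin and Trpv4 a cation channel. Of these 10 genes, 8 were on a list of 40 further choroid plexus epithelium genes that was used here. Prr32 and 2900040C04Rik were not. That list was chosen with earlier results of these data known, so the match is a description.

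The wider list moved with the 10 genes, and so did the ependymal list. Both lists were chosen with earlier results of these data known, so their values are a description. Of the 38 measured genes of the wider choroid plexus list, 36 had an r above 0.5 with the mean of the 10 genes, with a median of 0.86. Of 9 measured genes of the ependyma, the ciliated cell layer that lines the ventricle, 9 had an r above 0.5, with a median of 0.68 and a value of 0.78 for Foxj1, the master regulator of motile cilia. Among all 18018 genes the median was -0.04, and 4.04% were above 0.5.

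Other lists were less alike. The median r was 0.44 for 10 striatal projection neuron genes, 0.36 for 6 thalamic neuron genes, 0.16 for 6 dentate granule neuron genes, 0.06 for 9 endothelial genes, -0.02 for 10 meningeal and stromal fibroblast genes and -0.07 for 9 pallial excitatory neuron genes. In the fibroblast list Aebp1 (0.65) and Ogn (0.51) were above 0.5, while Col1a1 was at -0.03. Among endothelial genes Plvap, which marks the fenestrated capillaries found in the plexus, was at 0.50 and Cldn5, which marks the tight capillaries of the brain, was at -0.17.

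**Figure D4:**
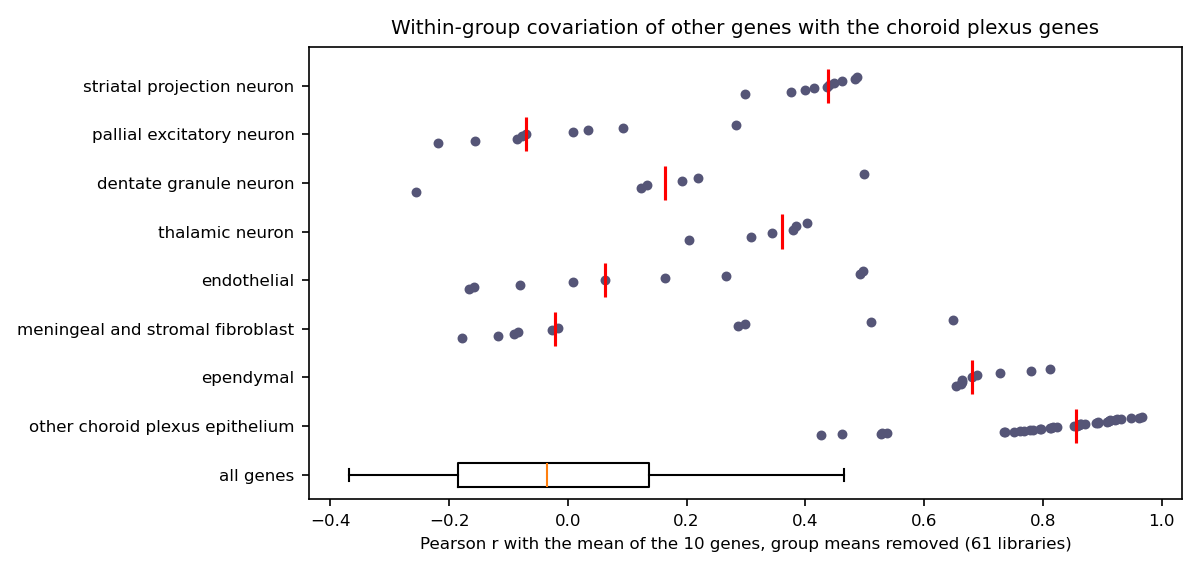
Pearson r of each gene's within-group deviations with the mean of the 10 choroid plexus genes over 61 libraries; points are genes of each list, red lines list medians, and the box shows the quartiles of 18018 genes with whiskers at the 5th and 95th percentiles. The wider choroid plexus list (median 0.86) and the ependymal list (0.68) lie to the right of the all-gene median of -0.04.

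Genes beside or across from the members did not all share the pattern. Between Kcne2 and Clic6, Rcan1 had an r of -0.21 with the mean of the 10 genes and Smim11 an r of -0.05. On the strand opposite to Otx2, Otx2os1 had an r of 0.81, and opposite to Folr1, Anapc15 had an r of 0.09. The cortex and dHPC libraries keep no strand, so there reads of Otx2 and Otx2os1, of Folr1 and Anapc15, and of F5 and Gm16548 cannot be told apart where these genes overlap.

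Ethanol and saline libraries of each region were compared within a paradigm with edgeR's quasi-likelihood F test over all genes, and a gene was called at a Benjamini-Hochberg adjusted p below 0.1. Log2 fold changes are ethanol over saline with their SE. Samples of a group come from separate mice.

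In the DS after acute ethanol, all 10 genes were higher on average, with a median log2 fold change of 1.75 against a value near 0 for all genes. Clic6 and Kl rose, and the other 8 did not pass the test. Of all genes tested in this comparison 5.15% were called, and 2.05% were called higher.

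Clic6 had 13.4, 15.05 and 15.6 CPM in the acute saline DS libraries and 44.9, 27.3 and 23.4 CPM in the acute ethanol libraries. The groups did not overlap. The log2 fold change was 1.08 ± 0.21 (adjusted p = 0.0112, edgeR).

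Kl had 4.05, 6.55 and 5.00 CPM after saline and 30.4, 18.9 and 5.91 CPM after ethanol in the same libraries. Of the ethanol mice replicate 5 lay within the saline range and the other two lay above it. The log2 fold change was 1.75 ± 0.45 (adjusted p = 0.0557, edgeR).

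Otx2 had 1.62, 2.53 and 0.883 CPM after saline and 7.65, 2.99 and 2.62 CPM after ethanol, and its groups did not overlap either. Its log2 fold change of 1.34 ± 0.47 missed the threshold with edgeR (adjusted p = 0.172) and passed with DESeq2 (1.36, adjusted p = 0.0652), which called 3 of the 10 genes and 6.40% of all genes. Groups that did not overlap with ethanol higher were found for 2 of the 10 genes and for 11.6% of all genes tested.

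Ttr had 2.84, 274 and 141 CPM after saline and 703, 345 and 40.9 CPM after ethanol, so its groups overlapped. The log2 fold change was 1.36 ± 0.91 (adjusted p = 0.531, edgeR). From the wider list of 40 genes, 38 were tested and 35 had a positive fold change. EdgeR called 5 higher and 0 lower, and DESeq2 7 higher and 0 lower. The 5 were Cgnl1 (0.80 ± 0.12, adjusted p = 0.00206), Mfrp (0.93 ± 0.21, adjusted p = 0.0308), Prlr (1.74 ± 0.43, adjusted p = 0.0458), Trpm3 (0.60 ± 0.15, adjusted p = 0.0539) and Abca4 (2.21 ± 0.58, adjusted p = 0.0612), all by edgeR.

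Markers of the dissected tissue differed between the same DS groups. Of 9 pallial excitatory neuron genes 9 fell by edgeR and 8 by DESeq2 (median log2 fold change -3.20), with a summed level of 540 to 733 CPM after saline against 115 to 218 CPM after ethanol. Of 10 striatal projection neuron genes 8 rose by edgeR and 9 by DESeq2, with a median of 0.30. The ependymal list summed to 28.7 to 64.6 CPM after saline and 46.7 to 91.4 CPM after ethanol, with Foxj1 at 16.9, 13.0 and 10.0 CPM against 28.3, 19.4 and 12.2 CPM. The part of these differences in the result on Clic6 and Kl was not tested. With all 4 DS groups in 1 fit, neither was called (adjusted p = 0.555 for Clic6 and 0.655 for Kl). Clic6 kept its call without any 1 of the 6 libraries, while Kl lost it in 5 of those 6 fits (adjusted p = 0.112 to 0.207) and kept it without acute ethanol replicate 5, the library with the highest total count of the vHPC, DS and VS (46564992).

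In the DS after chronic ethanol the direction of the fold changes was the opposite, but no gene passed the test. The edgeR test called 0 of the 10 genes (0 at an unadjusted p under 0.05) and 0% of all genes, and DESeq2 called 0 of the 10 and 0.776% of all genes. Ttr had 1724 and 6510 CPM in the 2 complete chronic saline libraries and 2759, 4.66, 2613 and 0.699 CPM in the 4 chronic ethanol libraries. Ethanol replicates 1 and 5 were thus within the range of the saline mice and replicates 4 and 6 were far below it. The median log2 fold change of the 10 genes was -1.50, and the lowest adjusted p was that of Clic6 (-1.03 ± 0.71, adjusted p = 0.770, edgeR). Clic6 had 58.2 and 165 CPM after saline and 101, 16.6, 81.4 and 17.3 CPM after ethanol. The incomplete saline library had 9.65 CPM of Ttr and 12.5 CPM of Clic6, below both complete ones, and with it the fold change of Clic6 was -0.54 ± 1.01. The ependymal list was at 90.5 to 153 CPM after saline and 30.2 to 147 CPM after ethanol, and the pallial excitatory list at 595 to 755 CPM and 129 to 295 CPM. Their part in the values was not tested.

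In the vHPC after chronic ethanol, the comparison that brought these genes into view, each of the 10 genes was higher in all 3 ethanol libraries than in all 3 saline libraries. Non-overlapping groups of this direction were found for 8.04% of all genes tested. EdgeR called 6 of the 10 genes and 0.0555% of all genes, and DESeq2 called 8 of the 10 and 1.08% of all genes. Nothing is read from these counts, since the comparison served to choose the genes.

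Ttr had 3.39, 168 and 88.2 CPM in the chronic saline vHPC libraries and 769, 2880 and 1208 CPM in the chronic ethanol libraries, with a log2 fold change of 4.20 ± 0.94. The fold change was 4.79 ± 0.54 for F5, 4.62 ± 0.52 for Tmem72, 4.28 ± 0.59 for Clic6, 4.14 ± 0.60 for Slc4a5 and 4.01 ± 0.55 for Kcne2. Kl, the gene with a base level in the hippocampus, had 22.1, 25.0 and 21.2 CPM after saline and 58.4, 128 and 76.0 CPM after ethanol, with a fold change of 1.93 ± 0.24. Besides Ttr, the genes that edgeR did not call were Aqp1 (4.14 ± 0.70), Folr1 (3.48 ± 0.76) and Otx2 (3.07 ± 0.60). The fold changes of called and uncalled genes thus overlapped.

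The acute vHPC libraries overlapped in Ttr level with both chronic groups. Acute saline libraries had 2096, 399 and 72.5 CPM of Ttr and acute ethanol libraries 472, 1759 and 36.9 CPM. The chronic ethanol libraries thus lay within the range of the acute saline libraries or, for replicate 5, above it, and chronic saline replicate 2 lay below every other vHPC library. With all 4 vHPC groups in 1 fit 0 of the 10 genes were called, and leaving out any 1 of the 3 saline libraries or chronic ethanol replicate 6 also gave 0.

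Other ventricular and striatal markers were higher on average in the chronic vHPC comparison, with few of them called by edgeR. The wider choroid plexus list had 40 of 40 genes higher, of which edgeR called 3, namely Ace (2.43 ± 0.33), Kcnj13 (4.60 ± 0.65) and Enpp2 (2.59 ± 0.38), and DESeq2 called 25. The ependymal list had 9 of 9 genes higher (0 called by edgeR, 1 by DESeq2) and summed to 7.31 to 70.0 CPM after saline and 43.0 to 104 CPM after ethanol. Foxj1 had 2.49, 21.3 and 4.34 CPM after saline and 14.3, 32.9 and 14.5 CPM after ethanol. Of the striatal projection neuron genes 10 of 10 were higher and 0 were called by edgeR or DESeq2, while Cldn5 had 18.9, 21.5 and 24.9 CPM against 14.95, 16.5 and 21.6 CPM. The part of these differences in the values of the 10 genes was not tested.

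In the vHPC after acute ethanol, edgeR called 0 of the 10 genes (0 at an unadjusted p under 0.05) and 0% of all genes, and DESeq2 called 0 of the 10 and 2.90% of all genes. The median log2 fold change was -0.17, and every SE but that of Kl was larger than 1. Otx2 had the lowest adjusted p (-1.05 ± 1.01, adjusted p = 0.722, edgeR), with 16.3, 3.71 and 0.856 CPM after saline and 2.58, 7.07 and 0.425 CPM after ethanol. The saline and ethanol ranges overlapped, and the fold change turned to 0.54 without acute saline replicate 2.

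In the dHPC after acute ethanol the groups were alike in level and steady. The Ttr level was 1822, 2031 and 3038 CPM after saline and 3706, 1306, 2683 and 2392 CPM after ethanol, with a log2 fold change of 0.13 ± 0.28. EdgeR called 0 of the 10 genes (0 at an unadjusted p under 0.05) and 0.0420% of all genes, and DESeq2 called 0 of the 10 and 1.07% of all genes. The fold changes of the 10 genes ran from -0.01 (F5) to 0.23 (Otx2, ± 0.24, adjusted p = 0.877, edgeR), with SEs between 0.22 and 0.31. Otx2 had 9.94, 10.7 and 13.9 CPM after saline and 18.8, 7.87, 16.1 and 11.8 CPM after ethanol. Of the 10 comparisons this was the one with the smallest median SE of the 10 genes.

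In the dHPC after chronic ethanol all 10 genes were lower on average, and none passed the test. EdgeR called 0 of the 10 genes (0 at an unadjusted p under 0.05) and 0% of all genes, and DESeq2 called 0 of the 10 and 0.859% of all genes. Ttr had 2435, 2504 and 16.4 CPM after saline and 235, 1453 and 10.6 CPM after ethanol. Each group had 1 library far below the others, replicate 6 in both, and these are different mice. The fold change of Ttr was -1.55 ± 1.62 (adjusted p = 0.819, edgeR), and the lowest adjusted p was that of Kl (-0.78 ± 0.61, adjusted p = 0.752, edgeR), which had 98.0, 102 and 21.5 CPM after saline and 33.2, 76.8 and 19.6 CPM after ethanol. The 9 ependymal genes were lower as well (median -0.95, 0 called by edgeR or DESeq2), and so were the 10 striatal projection neuron genes (median -2.52, 0 called by edgeR or DESeq2). The striatal list summed to 214 to 2827 CPM after saline, the highest in chronic saline replicate 5, and to 188 to 329 CPM after ethanol. The dentate granule neuron list had 6 of 6 genes higher (median 0.63), with 0 called by edgeR and 2 by DESeq2.

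In the cortex after acute ethanol 9 of the 10 genes were lower on average, with a median log2 fold change of -0.93, and none passed the test. Slc4a5, counted among the 9, passed the filter on low counts through the saline group alone. It had 0.0388 to 1.13 CPM there against 0 to 0.167 CPM after ethanol, and nothing is read from its sign. EdgeR called 0 of the 10 genes (5 at an unadjusted p under 0.05) and 1.99% of all genes, and DESeq2 called 0 of the 10 and 3.69% of all genes. F5 had the lowest adjusted p (-1.28 ± 0.38, adjusted p = 0.157, edgeR), with 0.699, 0.626 and 1.49 CPM after saline and 0.290, 0.501 and 0.365 CPM after ethanol. Of the 10 genes F5 alone had groups that did not overlap, against 8.90% of all genes tested with ethanol lower. Ttr had 4.77, 25.5 and 117 CPM after saline and 2.94, 12.1 and 17.8 CPM after ethanol, and the highest of these was acute saline replicate 6.

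The wider choroid plexus list did hold called genes in the acute cortex. Of 38 tested genes 7 fell and 1 rose by edgeR (10 and 1 by DESeq2), and the lowest adjusted p values by edgeR were those of Igf2 (-0.65 ± 0.08, adjusted p = 0.00862), Slc13a4 (-0.84 ± 0.12, adjusted p = 0.0103), Igfbp2 (-0.48 ± 0.07, adjusted p = 0.0111), Msx1 (-0.96 ± 0.17, adjusted p = 0.0231) and Sulf1 (0.67 ± 0.12, adjusted p = 0.0239). Igf2, a growth factor, and Igfbp2, which binds it, are made by leptomeningeal fibroblasts as well as by the plexus. Of 10 meningeal and stromal fibroblast genes 6 fell in the same comparison by either tool, with a summed level of 125 to 145 CPM after saline and 98.0 to 104 CPM after ethanol. Col1a1 had 9.57, 9.87 and 9.34 CPM after saline and 5.47, 7.35 and 6.13 CPM after ethanol, while the ependymal list had 0 called genes by either tool and summed to 14.2 to 15.3 CPM and 14.2 to 16.9 CPM. The striatal projection neuron list had 9 of 10 genes lower (median -0.37), with 3 called by edgeR and 4 by DESeq2. The endothelial list had 8 of 9 tested genes lower, with 2 called by each tool. The part of these markers in the result was not tested.

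After chronic ethanol in the cortex both groups had low levels of the 10 genes. EdgeR called 0 of the 10 genes (1 at an unadjusted p under 0.05) and 0% of all genes, and DESeq2 called 0 of the 10 and 0.608% of all genes. Tmem72 had 1.05, 0.908 and 0.803 CPM after saline and 0.287, 0.332 and 0.735 CPM after ethanol, with a fold change of -1.02 ± 0.38 (adjusted p = 0.443, edgeR). Tmem72 and Aqp1 were the 2 members whose groups did not overlap, against 9.16% of all genes tested with ethanol lower. Ttr had 8.36, 12.4 and 10.1 CPM after saline and 4.45, 22.4 and 2.04 CPM after ethanol.

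In the VS after acute ethanol 7 of the 10 genes passed the filter on low counts, and edgeR called 0 of them (1 at an unadjusted p under 0.05) and 0.0399% of all genes. DESeq2 called 0 of the 7 and 0.889% of all genes. Clic6, which kept a base level in the striatum, had 17.0, 17.4 and 20.2 CPM after saline and 26.5, 32.2 and 22.5 CPM after ethanol. Its groups did not overlap, against 6.82% of all genes tested with ethanol higher, and the fold change was 0.55 ± 0.15 (adjusted p = 0.423, edgeR). Ttr had 6.35, 19.3 and 189 CPM after saline and 4.19, 4.33 and 151 CPM after ethanol, so 1 library stood above the rest in each group. The pallial excitatory neuron genes were lower here too (9 of 9, median -2.76, 1 called by edgeR and 6 by DESeq2), at 464 to 1016 CPM after saline and 102 to 250 CPM after ethanol, and their part in the Clic6 values was not tested.

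In the VS after chronic ethanol 6 of the 10 genes passed the filter and all 6 had a negative fold change. Folr1 passed through the saline group alone, with 0 to 21.0 CPM there against 0 to 0.260 CPM after ethanol. Nothing is read from the sign of Folr1. EdgeR called 0 of them (3 at an unadjusted p under 0.05) and 0% of all genes, and DESeq2 called 0 and 1.79% of all genes. Ttr had 5.74, 4.47 and 2614 CPM after saline and 0.281, 1.28 and 1.43 CPM after ethanol, with a fold change of -9.73 ± 2.61 (adjusted p = 0.319, edgeR). Its groups did not overlap, against 6.66% of all genes tested with ethanol lower. Chronic saline replicate 6 decided the size: without it the fold change was -2.33 ± 0.52 (adjusted p = 0.295, edgeR). F5 had 1.10, 0.838 and 48.9 CPM after saline and 0.844, 0.689 and 0.779 CPM after ethanol, with the same library alone above the rest. The ependymal list was at 129 CPM in that library, against 15.9 to 29.5 CPM in the other two of its group and 14.3 to 41.2 CPM after ethanol. The pallial excitatory neuron genes were lower (9 of 9, median -3.16, 0 called by edgeR and 3 by DESeq2), at 152 to 882 CPM after saline and 110 to 186 CPM after ethanol. The part of these markers in the result was not tested.

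**Figure D5:**
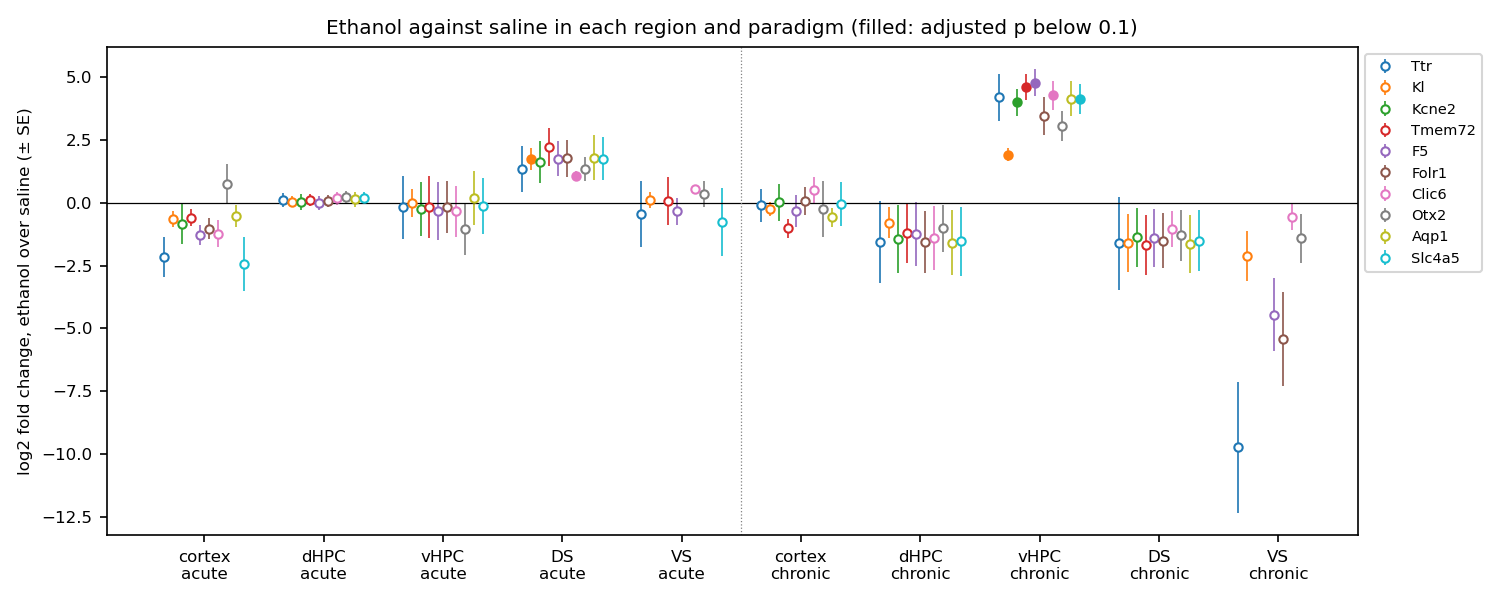
Log2 fold change of each gene, ethanol over saline, with its SE, in the 5 regions after acute (left) and chronic (right) ethanol; filled points have an adjusted p below 0.1 (edgeR), and genes that failed the filter on low counts are not drawn. Filled points are Clic6 and Kl in the acute DS and 6 genes in the chronic vHPC, the comparison used to choose the genes; the median SE is smallest in the acute dHPC and Ttr reaches -9.73 in the chronic VS.

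The difference between paradigms was tested as an interaction in each region. EdgeR called 0 of the 10 genes in the cortex (0 at an unadjusted p under 0.05), in the dHPC (0) and in the DS (2), and 0 of the 8 genes tested in the VS (3), with 0% of all genes called in each region. DESeq2 also called 0 of them in these regions, with 0.0791%, 0.00745%, 0.0190% and 0.0191% of all genes called. The genes with the lowest unadjusted p were Clic6 in the cortex (1.75 ± 0.88, adjusted p = 0.608), Folr1 in the dHPC (-1.66 ± 1.24, adjusted p = 0.969), Clic6 in the DS (-2.11 ± 0.83, adjusted p = 0.973) and Ttr in the VS (-9.28 ± 3.18, adjusted p = 0.997), all by edgeR. In the vHPC, as a description, the fold changes of the interaction ran from 1.93 for Kl to 5.12 for F5, all positive, and edgeR called 0 of the 10 genes (10 at an unadjusted p under 0.05) and 0% of all genes, and DESeq2 called 0 of the 10 and 2.02% of all genes. Ethanol and saline libraries of the 2 paradigms are separate mice, while the 5 regions share mice, so the regions are not independent of each other.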

How the data were processed

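Polyadenylated RNA of 62 tissue cores from 16 mice was sequenced. The authors removed adapters (cutadapt 5.0), aligned to GRCm39 (STAR 2.7.10a) and counted per gene and per isoform as reverse-stranded (featureCounts 2.0.6), with multi-mapping and overlapping reads included. The deposited values are these raw counts, which are not normalized. Whether reads or read pairs were counted was unclear, since 62.18% to 75.58% of counts of at least 20 were even in the vHPC, DS and VS and 52.78% to 54.99% in the cortex and dHPC, so counts divided by 2 were tried as an alternative chosen after seeing the data. The correlations within each region and without Ttr were also chosen then.

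Groups came from sample titles. The 10 genes and all gene lists were chosen with earlier results of these data known. Promoter sequences were missing for Folr1 and Clic6, and Ttr was left out of the promoter set. The motif count and the choice of printed promoters therefore do not cover these genes. A gene was tested where 2 or more samples of 1 group had 5 or more counts. Tests were run with edgeR 4.0.16 (R 4.3.3, TMM scaling, quasi-likelihood F test, FDR 0.1) in the groups of each comparison, with DESeq2 1.42.0 (Wald test) as the alternative. The SE of a fold change was its size divided by the square root of F. Levels are CPM with TMM scaling over all libraries, and correlations use log2 CPM with a prior count of 2 after removal of group means. Scripts were tested on simulated counts with 200 changed genes. EdgeR recovered 81.5% to 96% of them and DESeq2 86.5% to 94.5%. False calls made up 13.8% to 16.6% of calls with edgeR and 16% to 28.8% with DESeq2, above the FDR threshold of 0.1. Depth limits values near 0: in the shallower regions 1 count is a large part of a level below 1 CPM.

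Values are given for all 10 genes, for each one with an FDR below 0.1 in a comparison or else the one with the lowest FDR, for at most 5 genes of the wider choroid plexus list per comparison, for the 10 genes most alike, and for Foxj1, Col1a1, Cldn5 and Plvap as markers of other cells. Other members were added where their groups did not overlap, and Ttr throughout. Other alternatives were DESeq2 size factors, no filter, a minimum of 10 counts in each sample tested, a joint fit of a region's 4 groups, the replicate block and each library left out. The library left out of the DS fits was also put back.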

Additional observations from a re-analysis of the deposited data

Results flagged for a closer look

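Pairs of regions were compared for genes whose ethanol libraries all lay above the saline libraries in the one and all below in the other, and 3 such cases were found, all in the chronic paradigm and all with the vHPC as the higher side. For Ttr the log2 fold change in the vHPC exceeded that in the VS by 13.93. Chronic saline replicate 6 decided the size of the latter, which went from -9.73 to -2.33 without it. For Tmem72 it exceeded that in the cortex by 5.63, and for Aqp1 that in the cortex by 4.72. These differences were not tested, and the vHPC comparison served to choose the genes. Cortex and vHPC libraries also differ in kit and platform, and regions of 1 mouse are not independent. Among 22 sets of 4 libraries, each 1 gene or the summed level in 1 group, none had a library far outside the others by Dixon's test. These sets cover the dHPC acute ethanol and DS chronic ethanol groups alone. The latter split into high (3203 and 3009 CPM summed) and low libraries (28.0 and 23.8), which this test cannot flag. Smaller groups were not checked, such as VS chronic saline with 2967 CPM against 25.0 and 39.7.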

How the results depend on the processing

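Without a filter on low counts, edgeR called 6 of the 10 genes in the acute cortex, 1 in the acute VS, 8 in the chronic VS, 10 in the acute DS and 10 in the chronic vHPC, and in the interaction 2 in the cortex, 10 in the vHPC, 10 in the DS and 9 in the VS; the cause was not tested. With all 4 groups in 1 fit 0 were called in the acute DS and 0 in the chronic vHPC, and with at least 10 counts in every sample 0 of the 2 genes tested in the chronic vHPC. Leaving out 1 library gave 0 to 1 called genes in the acute cortex (Ttr without acute saline replicate 2), 0 to 10 in the chronic vHPC (10 without chronic ethanol replicate 4), 0 to 4 in the vHPC interaction (4 without acute saline replicate 6), 1 to 6 in the acute DS (6 without acute ethanol replicate 5, 1 without any of the other 5), 0 to 3 in the chronic VS (3 without chronic saline replicate 5) and 0 to 0 in every other comparison. Of the single fold changes, that of Otx2 in the acute vHPC reversed, to 0.54 without acute saline replicate 2, and ran from -2.21 to 0.54 over the left-out libraries. Counts of called genes were equal or within 1.5 times in 82 of 95 alternatives other than left-out libraries. The main count was 0 in every comparison but the acute DS and the chronic vHPC, so most of these are a 0 that stayed 0.

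Replicate numbers name different mice, so no pairing is given. With the number as a replicate block 1 gene was called in the acute cortex (Ttr), and no other count of called genes moved where the block could be fitted. In the remaining comparisons the groups share fewer than 2 numbers.

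The median summed level in the dHPC was 274.6 CPM without Ttr. The median correlation was 0.59 within the cortex, 0.99 within the dHPC and 0.96 within the vHPC.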
